A study of Homo sapiens with 44 samples.

Results

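The response of 2 human breast cancer cell lines to knockdown of EZH2 was compared by asking, for each gene, whether the change after siEZH2 in SUM149 cells differed from the change in MDA-MB-231 cells. This line difference is the siEZH2 effect in SUM149 (siEZH2 minus siControl) minus the siEZH2 effect in MDA-MB-231 (siEZH2 minus siControl), so a positive value means that the gene moved further up, or less far down, in SUM149. Of the 27315 gene symbols in the deposited table, 12356 entered the comparison. Each had a value in 2 or more libraries that exceeded the table's minimum by at least 1. The 4 groups were SUM149 with siEZH2, SUM149 with siControl, MDA-MB-231 with siEZH2 and MDA-MB-231 with siControl, each in duplicate. Cells were harvested 48 h after transfection with 20 nM small interfering RNA (siRNA). SUM149 is a line from an inflammatory breast cancer, MDA-MB-231 is described as a mesenchymal-like line, and both are classed as triple-negative. The same series also holds MDA-MB-231 cells with siRelA, siRelB or a control siRNA, which were used here only as a separate reading of the same genes. Each line stands for 1 tumour, so a line difference cannot be told apart from a difference between these particular cultures.

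EZH2 is the enzyme of Polycomb repressive complex 2 (PRC2) that methylates lysine 27 of histone H3, a mark found at silenced developmental and lineage genes. Loss of EZH2 is best known for letting such genes be transcribed, although EZH2 has also been described as an activator of some NF-kB-linked genes in hormone receptor-negative breast cancer cells. Which genes carry the mark, and which transcription factors are present to use them, differ between cell types, so the same knockdown can be followed by different changes in different lines.

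The deposited values are variance-stabilised, a log2-like scale on which differences shrink at low levels. The lowest value, 7.12, stands for no reads and is called the floor here. The transformation could be reversed, which gave normalised reads per gene and library totals of 27.3 to 28.9 M for SUM149 siEZH2, 17.5 to 25.5 M for SUM149 siControl, 27.2 to 38.1 M for MDA-MB-231 siEZH2 and 27.9 to 31.0 M for MDA-MB-231 siControl. A doubling moved the deposited value by 0.158 at 10 reads, 0.451 at 100 reads, 0.846 at 1000 reads and 0.981 at 10000 reads. Duplicates correlated at 0.997 to 0.999 across the tested genes and differed with a median standard deviation (SD) of 0.039 to 0.049. The keratin genes of basal cells KRT5, KRT6A and KRT17 stood at 248 to 4356 reads in SUM149 and at 0 to 20.4 reads in MDA-MB-231, but KRT14 was at 0 to 4.06 reads in all libraries. The epithelial adhesion gene EPCAM was close in the controls of both lines, at 1594 and 1460 reads in SUM149 siControl and 1410 and 1297 in MDA-MB-231 siControl. The mesenchymal gene VIM was higher in SUM149 siControl (62193 and 64843 reads) than in MDA-MB-231 siControl (35175 and 33519). ZEB1, also a mesenchymal marker, was similar, at 1218 and 1260 against 1261 and 1198. The epithelial gene CDH1 was lower in MDA-MB-231 siControl, at 24.5 and 23.8 reads against 116 and 102 in SUM149 siControl. The hormone receptor genes ESR1 and PGR were at 0 to 3.36 reads, and ERBB2 was at 348 to 533 reads in SUM149 and 1613 to 2363 in MDA-MB-231. In bulk RNA, fewer cells expressing a gene and less RNA per cell cannot be told apart.

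The targeted gene was low in all knockdown libraries. EZH2 (chromosome 7, 148807257 to 148884321, minus strand; positions here and below are those of GENCODE v44 on GRCh38) had 442 and 517 normalised reads in SUM149 siEZH2 libraries, against 2563 and 2746 in SUM149 siControl. In MDA-MB-231 it had 368 and 298 reads with siEZH2, against 3022 and 3020 with siControl. The groups with and without siEZH2 did not overlap in either line, and the remaining level was 18.1% of control in SUM149 and 11% in MDA-MB-231. The line difference of EZH2 itself was 0.51 ± 0.10 (standard error, SE, as for all later values after ±), with an adjusted p of 0.0035 by limma, so the knockdown was shallower in SUM149. Whether this gap in depth takes part in any other line difference was not tested. Among the genes of NF-kB, the inflammatory transcription factor, RELB had 281 and 293 reads in SUM149 siEZH2 against 553 and 440 in SUM149 siControl, and 184 and 206 in MDA-MB-231 siEZH2 against 632 and 589 in MDA-MB-231 siControl. RELB, the DNA-binding subunit of the non-canonical arm, therefore fell in both lines and fell further in MDA-MB-231 (line difference 0.52 ± 0.11, adjusted p = 0.0044, limma). NFKB1, which encodes p105 and p50, also fell less in SUM149 (0.35 ± 0.07, adjusted p = 0.0038, limma), whereas RELA, REL and NFKB2 had line differences of 0.09, 0.02 and 0.20 that did not pass the test. Without SUM149 siControl replicate 1 the line difference of NFKB2 was 0.30 and passed (adjusted p = 0.032, limma).

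Over all tested genes, the siEZH2 effect differed between the lines at an adjusted p under 0.05 (limma) for 2662 genes (21.5%), 1381 with a positive line difference (11.2%) and 1281 with a negative one (10.4%). Within each line, siEZH2 set against siControl called 3631 genes up (29.4%) and 3532 down (28.6%) in SUM149, and 3636 up (29.4%) and 3354 down (27.1%) in MDA-MB-231. Most called line differences were small: the median size was 0.41 for positive and 0.37 for negative ones, and 50 and 35 genes reached 1. Set by the calls within each line, 928 genes moved in the same direction in both lines by different amounts. Another 769 were called in SUM149 only and 745 in MDA-MB-231 only, and 25 in neither. In 124 genes (1%) the effect was a rise in SUM149 and a fall in MDA-MB-231, and in 71 genes (0.575%) a fall in SUM149 and a rise in MDA-MB-231. On recovered counts, with edgeR's quasi-likelihood test, 1306 genes were positive (10.6%) and 722 negative (5.84%), 2028 in all (16.4%), so the share of positive calls was 64.4% on counts against 51.9% on the deposited values. Centring each library on its median gave 58.9% positive calls and quantile normalisation 52.6%. Within the lines the counts called 3780 genes up (30.6%) and 3186 down (25.8%) in SUM149, and 3580 up (29%) and 3496 down (28.3%) in MDA-MB-231.

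**Figure D1:**
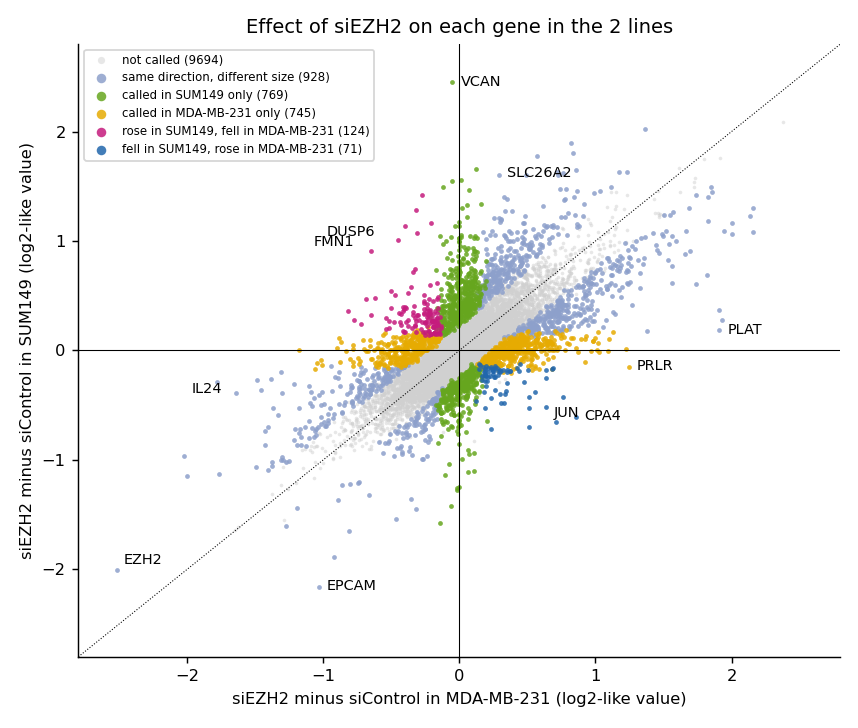
Effect of siEZH2 (siEZH2 minus siControl, log2-like deposited scale) in SUM149, vertical axis, and in MDA-MB-231, horizontal axis, for the tested genes, coloured by class; the dotted line marks equal effects and the 25 genes called in neither line are not drawn. The 124 genes that rose in SUM149 and fell in MDA-MB-231 lie upper left, the 71 with the reverse pattern lie lower right, and EZH2 lies above the dotted line at lower left.

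The genes that moved in opposite directions included inhibitors of signalling and regulators of the actin cytoskeleton. DUSP6, a phosphatase that dephosphorylates ERK, had 3198 and 3236 reads in SUM149 siEZH2 against 1482 and 1441 in SUM149 siControl, and 4269.6 and 4496 in MDA-MB-231 siEZH2 against 6279.9 and 5929.7 in MDA-MB-231 siControl. It rose to 2.20 times control in SUM149 and fell to 71.8% of control in MDA-MB-231 (line difference 1.47 ± 0.07, adjusted p = 1.5e-07, limma). FMN1, a formin that assembles actin filaments, had 1461 and 1568 reads in SUM149 siEZH2 against 652 and 732 in siControl, and 1237 and 1052 in MDA-MB-231 siEZH2 against 2058 and 1820.1 in siControl. In both genes the 2 groups of each line did not overlap, their order was reversed between the lines, and the line with the lower starting level was the one that rose. FMN1 had a line difference of 1.56 ± 0.11 (adjusted p = 1.3e-06, limma).

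SOCS3, the feedback inhibitor of JAK-STAT signalling, had 413 and 459 reads in SUM149 siEZH2 against 250.3 and 237 in SUM149 siControl, and 931 and 1010.2 in MDA-MB-231 siEZH2 against 1483 and 1398 in MDA-MB-231 siControl. NUAK1, an AMPK-related kinase, had 736 and 750.5 reads in SUM149 siEZH2 against 416 and 463 in siControl, and 2256 and 2379.7 in MDA-MB-231 siEZH2 against 3372 and 3409.8 in siControl. Both genes again started lower in SUM149, the line in which they rose. Such a start was not common to all 6 genes named for a rise in SUM149 and a fall in MDA-MB-231, since EPAS1 and LCP1 started higher in SUM149. EPAS1, which encodes the hypoxia-inducible factor HIF-2α, had 14208 and 12649.6 reads in SUM149 siEZH2 against 9389 and 9755 in SUM149 siControl, and 1172 and 975 in MDA-MB-231 siEZH2 against 1769 and 1802 in MDA-MB-231 siControl. LCP1, the actin-bundling protein L-plastin, had 1796 and 1672 reads in SUM149 siEZH2 against 1108 and 1251 in siControl, and 141 and 145 in MDA-MB-231 siEZH2 against 337 and 356 in siControl. The line differences of SOCS3, NUAK1, EPAS1 and LCP1 lay between 0.98 and 1.16, all called by limma and by edgeR on recovered counts.

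The reverse pattern included a growth factor gene and an AP-1 gene. JUN, a subunit of the AP-1 transcription factor, had 583 and 550.5 reads in SUM149 siEZH2 against 982 and 842 in SUM149 siControl, and 2602 and 3049 in MDA-MB-231 siEZH2 against 1731 and 1716 in MDA-MB-231 siControl. It fell to 62.1% of control in SUM149 and rose to 1.64 times control in MDA-MB-231 (line difference -1.15 ± 0.11, adjusted p = 9.9e-06, limma). EREG, which encodes the EGFR ligand epiregulin, had 3053 and 3171 reads in SUM149 siEZH2 against 4599.9 and 4574 in SUM149 siControl, and 404 and 430.4 in MDA-MB-231 siEZH2 against 238 and 226 in MDA-MB-231 siControl. For JUN the line with the lower start fell, and for EREG the line with the higher start fell.

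CPA4, a secreted carboxypeptidase, had 272 and 239 reads in SUM149 siEZH2 against 499 and 504 in SUM149 siControl, and 1382 and 1392 in MDA-MB-231 siEZH2 against 639 and 673 in MDA-MB-231 siControl. The 2 controls were close, and the knockdown libraries lay on either side of them, which gave a line difference of -1.47 ± 0.09 (adjusted p = 4.2e-07, limma). ADAMTS1, a secreted metalloprotease that cleaves versican, had 119 and 126 reads in SUM149 siEZH2 against 304 and 326 in siControl, and 183 and 196 in MDA-MB-231 siEZH2 against 85.2 and 81.4 in siControl. SLCO4A1, an organic anion transporter, had 1683 and 1697 reads in SUM149 siEZH2 against 3015 and 2628 in siControl, and 301 and 286 in MDA-MB-231 siEZH2 against 124 and 94.1 in siControl. The acyltransferase gene LCLAT1 had the smallest line difference of the 12 genes named for opposite effects, -0.94 ± 0.10, and its libraries did not overlap within either line. Of the 124 genes that rose in SUM149 and fell in MDA-MB-231, the line difference of 123 was also called with the same sign on recovered counts, and 122 fell into the same class. Of the 71 with the reverse pattern, 69 were called with the same sign and 52 fell into the same class.

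**Figure D2:**
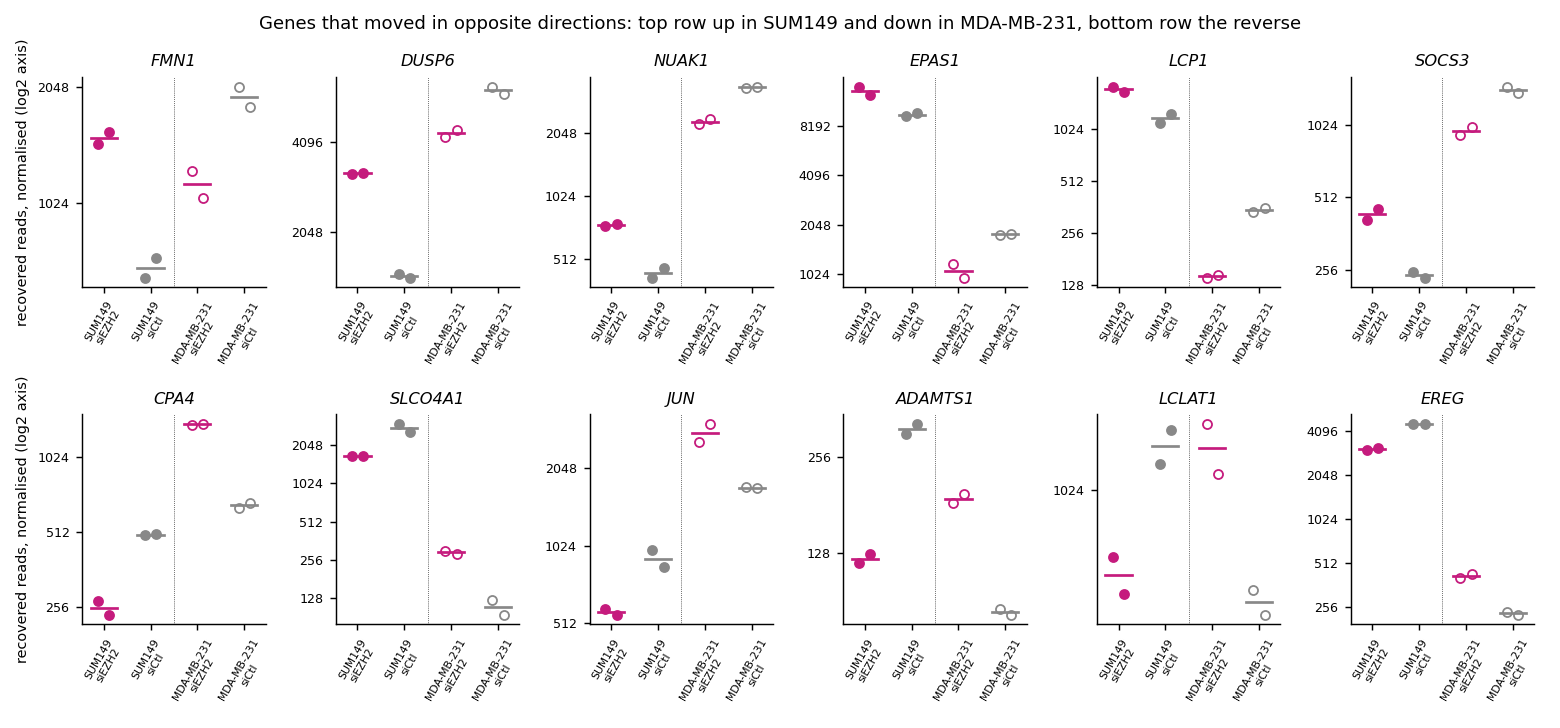
Normalised reads (log2 axis) of the 12 genes named for opposite effects, per library (points) with the group mean (line), in SUM149 siEZH2, SUM149 siControl, MDA-MB-231 siEZH2 and MDA-MB-231 siControl; filled points are SUM149, open points MDA-MB-231, pink siEZH2 and grey siControl. In the top row siEZH2 lies above siControl in SUM149 and below it in MDA-MB-231, as for DUSP6 with 3198 and 3236 reads in SUM149 siEZH2 against 1482 and 1441 in SUM149 siControl, and in the bottom row the order is reversed.

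A separate reading of these genes came from MDA-MB-231 cells with siRelA or siRelB, which have their own control libraries. Of the 124 genes that rose in SUM149 and fell in MDA-MB-231 with siEZH2, 114 were tested there. With siRelB 30 of them fell (26.3%, against 10.8% of all genes tested in that experiment) and 10 rose (8.77%, against 7.45%). With siRelA 22 rose (19.3%, against 8.82%) and 19 fell (16.7%, against 10.2%). Of the 67 tested genes with the reverse pattern, 17 fell with siRelB (25.4%) and 6 rose (8.96%), and with siRelA 13 fell (19.4%) and 12 rose (17.9%). With siRelB both classes held more genes that fell than genes that rose. Both shares of falls were above that of all genes tested in that experiment. The latter also hold genes that did not enter the siEZH2 comparison or had no called line difference in it. They are therefore not a matched background, and the shares are a description only. Whether the 2 classes differ from each other in the siRel experiment was not tested. Of the 12 genes named for opposite effects, 6 were called with siRelB, 3 in the direction of their siEZH2 effect in MDA-MB-231 and 3 in the other. In the same direction, FMN1 fell by 0.44 on the log2 scale (adjusted p = 0.022, edgeR's quasi-likelihood test), LCP1 fell by 1.42 (adjusted p = 0.0048) and LCLAT1 rose by 0.56 (adjusted p = 0.019). In the other direction, DUSP6 rose by 0.78 (adjusted p = 6.8e-06), SLCO4A1 fell by 0.92 (adjusted p = 0.00044) and CPA4 fell by 0.51 (adjusted p = 0.012). With siRelA, SOCS3 was the 1 called gene of the 12 and fell by 0.65 (adjusted p = 0.00039), as it did with siEZH2. The siRelB calls of FMN1, CPA4 and LCLAT1 were each lost without a single library: FMN1 without siControl replicate 2 (-0.25) or siRelB replicate 2 (-0.35), CPA4 without siControl replicate 1 (-0.50), siControl replicate 2 (-0.53) or siRelB replicate 2 (-0.44), and LCLAT1 without siControl replicate 1 (0.56), siControl replicate 2 (0.54) or siRelB replicate 1 (0.30).

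Genes called in SUM149 only, although MDA-MB-231 also expressed them, included regulators of adhesion and of growth factor signalling. NRG1, the ligand of ERBB3 and ERBB4, had 279 and 212 reads in SUM149 siEZH2 against 747 and 806 in SUM149 siControl, and 2621 and 2664 in MDA-MB-231 siEZH2 against 2440 and 2437 in MDA-MB-231 siControl. It fell to 31.6% of control in SUM149, and averaged 1.08 times control in MDA-MB-231 (line difference -1.21 ± 0.10, adjusted p = 3.9e-06, limma). JUND, another AP-1 subunit, had 319.9 and 263 reads in SUM149 siEZH2 against 901 and 917 in SUM149 siControl, and 430.3 and 368 in MDA-MB-231 siEZH2 against 424 and 468 in MDA-MB-231 siControl. Its MDA-MB-231 groups overlapped. SPINT2, an inhibitor of the serine protease that activates hepatocyte growth factor, had 529.9 and 474 reads in SUM149 siEZH2 against 1235 and 1235 in siControl, and 6709 and 6546 in MDA-MB-231 siEZH2 against 6548 and 6493 in siControl.

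In the upward direction, SH3PXD2A, the scaffold TKS5 of invadopodia, had 766 and 715 reads in SUM149 siEZH2 against 257 and 241 in siControl, and 2319 and 2053 in MDA-MB-231 siEZH2 against 2214 and 2121 in siControl. SH3PXD2A rose in SUM149 and remained below its MDA-MB-231 level. The mRNA-decay factor ZFP36L1 (line difference 0.95 ± 0.13) and the focal adhesion gene TNS4 (1.09 ± 0.13) also rose in SUM149 only, and KIAA1217 fell there only (-0.96 ± 0.19, adjusted p = 0.0026, limma). For KIAA1217 the MDA-MB-231 siEZH2 duplicates lay far apart, at 1561 and 947 reads. Of the 769 genes called in SUM149 only, 465 rose and 304 fell. MDA-MB-231 was at the floor for 232 of them (173 rose and 59 fell), and 34 of these kept the class on recovered counts. With both lines off the floor the split was nearly even, at 267 and 241. In all, 453 of the 769 kept the class on counts. Of the genes so classed on counts, 367 rose and 159 fell.

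The genes called in MDA-MB-231 only included those of 2 cell surface receptors. PRLR, the prolactin receptor, had 56.6 and 64.4 reads in SUM149 siEZH2 against 88.0 and 76.9 in SUM149 siControl, and 497 and 426 in MDA-MB-231 siEZH2 against 103 and 71.8 in MDA-MB-231 siControl. The controls of the lines were alike, and PRLR rose to 5.28 times control in MDA-MB-231 alone (line difference -1.39 ± 0.11, adjusted p = 2.4e-06, limma). F2RL1, the protease-activated receptor PAR2, had 405 and 391 reads in SUM149 siEZH2 against 349 and 394 in SUM149 siControl, and 5380.4 and 5358 in MDA-MB-231 siEZH2 against 2547 and 2479 in MDA-MB-231 siControl. HS3ST3B1, which sulphates heparan sulphate chains, had the opposite sign, with 294 and 299 reads in SUM149 siEZH2 against 298 and 295 in siControl, and 385 and 382 in MDA-MB-231 siEZH2 against 1215 and 1112 in siControl. It averaged 1.00 times control in SUM149 and fell to 33.0% of control in MDA-MB-231. TSEN15, a tRNA splicing endonuclease subunit, and SAPCD2 also rose in MDA-MB-231 only (line differences -0.90 and -0.85), and CHN1, ZNF699 and SERTAD4 fell there only (0.94, 0.93 and 0.92). Of the 745 genes called in MDA-MB-231 only, 428 rose and 317 fell. SUM149 was at the floor for 228 of them (155 rose and 73 fell), and 22 of these kept the class on recovered counts. With both lines off the floor, 269 rose and 234 fell. In all, 415 of the 745 kept the class on counts. The majority was reversed there: of the 483 genes so classed on counts, most had a positive line difference. These were 159 with a SUM149 mean above control and 115 with one below.

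The 8 most positive and 8 most negative protein-coding genes with both lines off the floor, which means a control mean at least 1 above it, included PLAT, HAS2 and CLU. PLAT, the tissue plasminogen activator, had 7208 and 6750.2 reads in SUM149 siEZH2 against 6001 and 6232 in SUM149 siControl, and 10779.5 and 11831 in MDA-MB-231 siEZH2 against 2833 and 2785 in MDA-MB-231 siControl. It rose in both lines, to 1.14 times control in SUM149 and 4.02 times in MDA-MB-231, and its line difference of -1.73 ± 0.08 was the most negative of all tested genes (adjusted p = 1.1e-07, limma).

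HAS2, a synthase of hyaluronan, had 3370.1 and 3232 reads in SUM149 siEZH2 against 1124 and 1288 in SUM149 siControl, and 86.8 and 81.3 in MDA-MB-231 siEZH2 against 158 and 133 in MDA-MB-231 siControl. The sulphate transporter gene SLC26A2 rose to 3.06 times control in SUM149 and 1.25 times in MDA-MB-231, and the Kunitz-type protease inhibitor gene TFPI2 rose to 3.59 and 1.63 times control. These line differences were 1.61 for HAS2, 1.31 for SLC26A2 and 1.21 for TFPI2. Falls of different depth also gave positive line differences: the vasodilator peptide gene ADM had 821 and 761 reads in SUM149 siEZH2 against 1133 and 916 in siControl, and 527 and 650.5 in MDA-MB-231 siEZH2 against 2700.3 and 2549.8 in siControl. The cytokine gene IL24 fell to 74.7% of control in SUM149 and to 15.5% in MDA-MB-231. On the negative side, the chaperone gene CLU had 363 and 326 reads in SUM149 siEZH2 against 480 and 598 in siControl, and 2272 and 2195 in MDA-MB-231 siEZH2 against 1171 and 1254 in siControl (line difference -1.18 ± 0.11, adjusted p = 7.6e-06, limma). Among the 928 genes that moved the same way in both lines, 290 rose more in SUM149, 347 rose more in MDA-MB-231, 113 fell more in SUM149 and 178 fell more in MDA-MB-231. On recovered counts 614 of the 928 kept this class, and the order of the rises was reversed. There 327 genes rose more in SUM149, 216 rose more in MDA-MB-231, 75 fell more in SUM149 and 189 fell more in MDA-MB-231.

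The share of calls that held on both scales differed with the starting level. A line was taken as at the floor for a gene where all 4 of its libraries lay less than 1 above the lowest value. With both lines off the floor, 1978 of 10398 genes (19%) had a called line difference on the deposited values, and 1583 of these (80.0%) were also called with the same sign on recovered counts. With SUM149 at the floor, 305 of 859 genes were called (35.5%) and 45 of these (14.8%) held on counts. With MDA-MB-231 at the floor, 285 of 730 were called (39.0%) and 55 of these (19.3%) held. On counts the called shares were 17.3%, 7.80% and 9.04%. Across all 2662 calls, 1742 held (65.4%), 793 kept their sign without a call, and 127 had the other sign, 6 of them with a call. A line at the floor had less than 1 of room to fall on this scale, and its few reads limit what the counts can show. The upper limit lies between the values for 50 reads (7.97) and 100 reads (8.31), so such a gene can still be expressed. Some falls from there were called, such as that of IL1A in MDA-MB-231 (-0.31, adjusted p = 0.0027, limma). The definition takes in the siEZH2 libraries, so genes that rose well above the floor in that line are not among these. Genes with a line at the floor entered the comparison only through the other line, whereas off the floor was set by the controls alone. The shares are therefore shaped by this selection and are a description only.

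**Figure D3:**
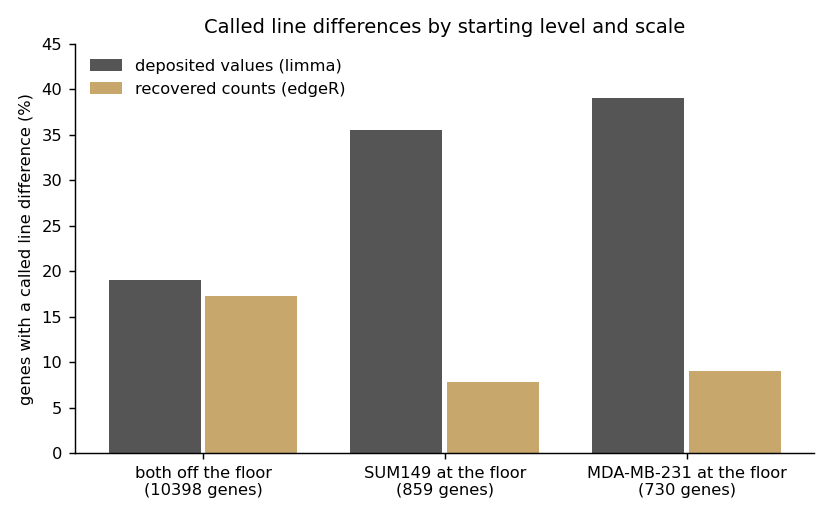
Share of tested genes with a called line difference (vertical axis, %) by starting level, on deposited values with limma (dark bars) and on recovered counts with edgeR (light bars). With both lines off the floor the shares are 19% and 17.3%, with SUM149 at the floor 35.5% and 7.80%, and with MDA-MB-231 at the floor 39.0% and 9.04%.

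The largest line difference of all tested genes belonged to a gene that MDA-MB-231 barely expressed. VCAN, the matrix proteoglycan versican (chromosome 5, 83471618 to 83582303, plus strand), had 4421 and 4669.9 reads in SUM149 siEZH2 against 623 and 629 in SUM149 siControl, and 24.6 and 13.6 in MDA-MB-231 siEZH2 against 20.5 and 24.8 in MDA-MB-231 siControl. It rose to 7.26 times control in SUM149, the MDA-MB-231 groups overlapped, and the line difference was called on both scales (2.5 ± 0.10, adjusted p = 1.7e-08, limma; 3.20 on counts, adjusted p = 8.3e-06, edgeR). PTGS2, the inducible cyclooxygenase COX-2, also held on counts: it had 4523 and 4512 reads in SUM149 siEZH2 against 10976 and 11443 in SUM149 siControl, and 55.0 and 41.7 in MDA-MB-231 siEZH2 against 50.2 and 50.9 in MDA-MB-231 siControl. KRT6A, a keratin of activated squamous epithelium, rose to 3.18 times control in SUM149 and stood at 0 to 3.79 reads in MDA-MB-231 (line difference on counts 3.86, adjusted p = 0.031, edgeR). Reads of KRT6A are uncertain in their assignment, since KRT6B and KRT6C are near-identical.

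Other genes at or near 0 reads in MDA-MB-231 changed strongly in SUM149, but the counts gave no call for the difference. MMP9, the gelatinase, had 2647 and 2638 reads in SUM149 siEZH2 against 780.2 and 689 in SUM149 siControl, with 1.93 to 5.66 reads in MDA-MB-231 (adjusted p on counts 0.15, edgeR). MEFV, which encodes pyrin, rose to 6.75 times control in SUM149 with 0 to 0.808 reads in MDA-MB-231. CCL20, a chemokine that attracts CCR6-bearing cells, fell to 28.8% of control in SUM149, and the BMP antagonist GREM1 fell to 45.4%, with 0 to 1.69 and 0.926 to 4.78 reads in MDA-MB-231. At this depth a fall of these 4 genes in MDA-MB-231 was not detectable, and a fall was the SUM149 direction of CCL20 and GREM1 only. MMP9 and MEFV rose in SUM149, and their few reads limit any fold change read in MDA-MB-231. AREG, the EGFR ligand amphiregulin, was read at a higher level, fell to 31.6% of control in SUM149 and stood at 42.4 to 63.6 reads in MDA-MB-231. Unlike these 4 genes, AREG kept its call on recovered counts (line difference -1.36 on deposited values). The siRel control libraries of MDA-MB-231, counted by another pipeline and normalised separately, had 107 counts per 1 M (CPM) of AREG, against 2.18 CPM in the siControl libraries of the siEZH2 experiment, so its place at the floor does not carry over to that experiment. Of the 628 genes at the floor in MDA-MB-231 and matched to the siRel counts, 440 were under 1 CPM there (70.1%), with a median of 0.380 CPM, against a median of 38.9 CPM for the genes off the floor.

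With SUM149 at the floor, 2 of the 4 genes named for the most negative line differences, SAMD9L and IFIT2, were interferon-induced. SAMD9L, an interferon-induced antiviral gene (chromosome 7, 93130056 to 93148385, minus strand), had 13.9 and 17.1 reads in SUM149 siEZH2 against 3.20 and 2.25 in SUM149 siControl, and 4007 and 3878 in MDA-MB-231 siEZH2 against 882 and 813 in MDA-MB-231 siControl. IFIT2, which binds viral RNA, had 25.5 and 26.3 reads in SUM149 siEZH2 against 4.91 and 3.38 in siControl, and 3496 and 3809.9 in MDA-MB-231 siEZH2 against 777 and 799 in siControl. In both genes siEZH2 lay above siControl in each line with no overlap, and for IFIT2 the ratio was 6.25 in SUM149 and 4.64 in MDA-MB-231. On deposited values their line differences were -1.65 and -1.53, both called by limma, while on counts they were 0.30 and 0.48 with adjusted p of 0.79 and 0.60 (edgeR). RGS4, a brake on G-protein signalling, rose to 3.75 times control in MDA-MB-231 and the glycosyltransferase GALNT5 to 2.27 times, and neither difference was called on counts.

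Of the 4 genes named for a fall from an expressed level in MDA-MB-231 with SUM149 at the floor, CYP1A1 held on both scales. This target of the aryl hydrocarbon receptor had 45.1 and 40.4 reads in SUM149 siEZH2 against 26.0 and 36.2 in SUM149 siControl, and 585 and 622 in MDA-MB-231 siEZH2 against 1334 and 1306 in MDA-MB-231 siControl (1.59 on counts, adjusted p = 0.00043, edgeR). FST, the activin-binding follistatin, had 2.96 and 8.26 reads in SUM149 siEZH2 against 16.5 and 24.3 in siControl, and 308 and 385 in MDA-MB-231 siEZH2 against 1346 and 1434 in siControl. Its level was 27.5% of control in SUM149 and 24.9% in MDA-MB-231, and the difference was 1.22 on deposited values but 0.10 on counts (adjusted p = 0.96, edgeR). The filament-aggregating protein gene FLG and the endogenous retroviral gene ERVMER34-1 fell to 51% and 19.8% of control in MDA-MB-231, and neither difference was called on counts.

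**Figure D4:**
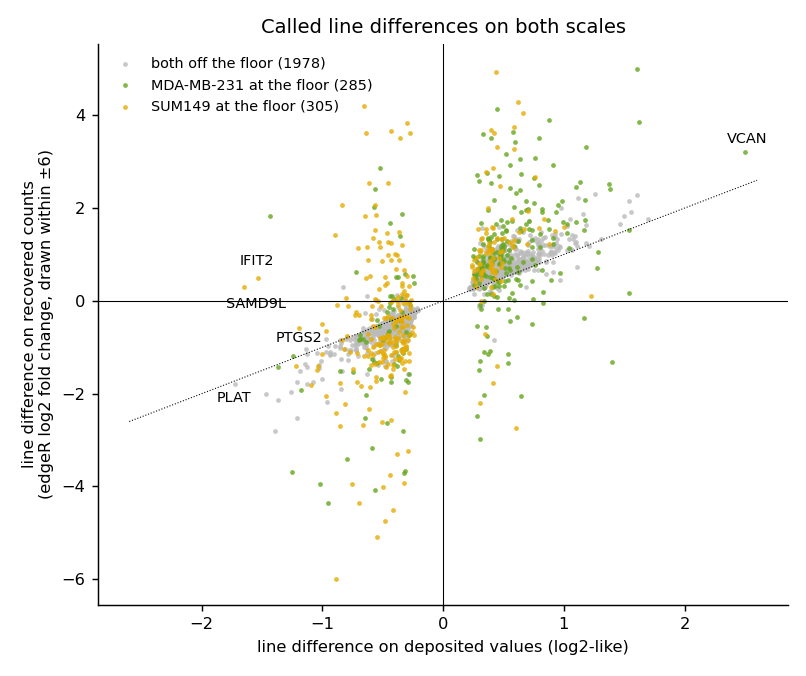
Line difference of each called gene on deposited values (horizontal axis, log2-like) and on recovered counts (vertical axis, edgeR log2 fold change), coloured by starting level; the dotted line marks equality, vertical values beyond the drawn range are set at its edge, and the 94 called genes between these starting levels are not drawn. Genes with both lines off the floor lie mostly near the dotted line, while those with 1 line at the floor scatter to both sides, SAMD9L and IFIT2 among them at 0.30 and 0.48 on counts against -1.65 and -1.53 on deposited values.

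The distance between the controls also went with the share of calls when both lines were off the floor. With control means within 1 of each other, 1464 of 8839 genes had a called line difference (16.6%). With controls 1 to 2 apart the count was 408 of 1339 (30.5%), and with controls over 2 apart 106 of 220 (48.2%). The shares on recovered counts were 14.6%, 30.1% and 50.5%. Of the 769 genes called in SUM149 only, 224 had a control level at least 1 higher in SUM149 and 77 at least 1 higher in MDA-MB-231. Of the 745 called in MDA-MB-231 only, 46 started at least 1 higher in SUM149 and 219 in MDA-MB-231. The counts were 19 and 47 for the genes that rose in SUM149 and fell in MDA-MB-231, and 14 and 12 for the reverse class. The control libraries enter both the starting level and the line difference, so these values are a description only.

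The starting level of some named genes in MDA-MB-231 differed between the siControl libraries of the siEZH2 experiment and those of the siRel experiment, which were counted and normalised separately, so no test was made. LOX, the collagen cross-linking enzyme, had 2.63 CPM in the siEZH2 experiment and 71.0 CPM in the siRel experiment. JUN had 65.3 and 201 CPM, EREG 8.78 and 35.0 CPM, and SLCO4A1 4.14 and 42.4 CPM, and DUSP6 had 231 and 90.1 CPM. Of the 6 genes named for a fall in SUM149 and a rise in MDA-MB-231, 5 had a lower control level in the siEZH2 experiment than in the siRel experiment, and LCLAT1 had a higher one, with 27.95 and 17.6 CPM. All 6 genes named for the reverse had a higher control level in the siEZH2 experiment, by 1.09-fold for SOCS3 to 2.57-fold for DUSP6. The same control libraries enter the siEZH2 effect. Outside these 12 genes, PRLR, which rose with siEZH2 in MDA-MB-231, had 3.31 and 2.69 CPM, and HAS2, which fell, had 5.52 and 12.8 CPM. Of 11191 tested genes with at least 1 CPM in either experiment, 278 were over 4-fold higher in the siRel controls and 515 over 4-fold higher in the siEZH2 controls (7.09% together). The share was 7.04% of the 2343 such genes with a called line difference. The part of these gaps in the line differences was not tested.

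The called cell cycle genes were mostly positive in the G1/S list and negative in the G2/M list. Of 37 tested genes of the G1/S transition and DNA replication, 12 had a positive line difference and 1 a negative one, with 13 and 1 on recovered counts, against 11.2% positive and 10.4% negative among all tested genes. The median of 0.19 lay above the -0.01 of all tested genes. Of the 37 genes, 16 fell and 5 rose in SUM149, and 26 fell and 5 rose in MDA-MB-231. Of all tested genes, 28.6% fell in SUM149 and 27.1% in MDA-MB-231. CCND1, which encodes cyclin D1, had 4129 and 4070 reads in SUM149 siEZH2 against 5959.8 and 5711 in SUM149 siControl, and 6387 and 6258 in MDA-MB-231 siEZH2 against 14005 and 13644 in MDA-MB-231 siControl (line difference 0.61 ± 0.07, adjusted p = 5.9e-05, limma). The E2F family genes E2F8 and E2F2 had line differences of 0.44 and 0.40. The call of E2F8 was lost without MDA-MB-231 siControl replicate 1 (0.39), without MDA-MB-231 siEZH2 replicate 2 (0.35) and without SUM149 siEZH2 replicate 2 (0.43). CCNE2, which encodes cyclin E2, rose to 1.60 times control in SUM149 and averaged 1.08 times control in MDA-MB-231, and the cell cycle inhibitor gene CDKN1B was the single negative member at -0.27.

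Of 32 tested genes of G2 and mitosis, 12 had a negative line difference and none a positive one (10 and 0 on recovered counts), with a median of -0.20. All tested genes were negative in 10.4% and positive in 11.2% (5.84% and 10.6% on counts). KIF20A, a mitotic kinesin, had 10001 and 8905 reads in SUM149 siEZH2 against 8480.4 and 9052 in SUM149 siControl, and 4995 and 4949 in MDA-MB-231 siEZH2 against 3376 and 3151 in MDA-MB-231 siControl. The SUM149 groups overlapped, and the MDA-MB-231 groups did not (line difference -0.47 ± 0.09, adjusted p = 0.0024, limma). BUB1, a spindle checkpoint kinase, was at 92.2% of control in SUM149 and 1.23 times control in MDA-MB-231. PLK1, the polo-like kinase of mitotic entry, was at 81.0% of control in SUM149 and 1.08 times control in MDA-MB-231. The call of PLK1 was lost without MDA-MB-231 siControl replicate 1 (line difference -0.33) and without SUM149 siEZH2 replicate 2 (-0.31). The lists were chosen with earlier results of these data known, so these counts describe the members and are not tests of a theme.

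Mesenchymal and matrix genes mostly rose with siEZH2 in both lines. Of 29 tested mesenchymal genes, 25 rose in SUM149 and 19 in MDA-MB-231, against 29.4% of all tested genes in each line. The line difference was positive for 16 and negative for 4 (13 and 2 on recovered counts), against 11.2% and 10.4% of all tested genes (10.6% and 5.84% on counts). SNAI2, the repressor SLUG, had 4023 and 3894 reads in SUM149 siEZH2 against 1732 and 1801 in SUM149 siControl, and 1066 and 1031 in MDA-MB-231 siEZH2 against 766 and 801 in MDA-MB-231 siControl (line difference 0.73 ± 0.08, adjusted p = 2.4e-05, limma). LOX had the opposite sign. It rose to 3.67 times control in SUM149 and 14.1 times in MDA-MB-231 (line difference -1.07 ± 0.11, adjusted p = 1.6e-05, limma). COL1A2, another negative member, was at 0 reads in both SUM149 siControl libraries and had a line difference of 2.07 on counts, without a call.

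Fibroblast marker genes were read in the same libraries, since they share genes with this list. Of 10 such genes, 8 reached 10 reads in any library, and their summed level was 6284 to 6431 reads in SUM149 siEZH2 against 2858 to 3002 in SUM149 siControl, and 659 to 714 in MDA-MB-231 siEZH2 against 337 to 349 in MDA-MB-231 siControl. Most of the SUM149 sum was DCN, at 4626 and 4334 reads with siEZH2 and 2024 and 2201 with siControl, and FAP. PDGFRA and DPT stood at up to 6.17 and at 0 reads, and COL3A1 at up to 12 reads. COL1A1 had 228 and 274 reads in SUM149 siEZH2 against 183 and 143 in SUM149 siControl, and 173 and 162 in MDA-MB-231 siEZH2 against 184 and 183 in MDA-MB-231 siControl. In MDA-MB-231, PDGFRB had 172 and 215 reads with siEZH2 against 35.0 and 40.7 with siControl, COL1A2 had 252 and 259 against 38.8 and 44.1, and LUM had 45.3 and 52.3 against 65.4 and 70.4. These 3 genes had at most 9.82 reads in any SUM149 library. Of 12 haematopoietic markers, 4 reached 10 reads and 3 were at 0 throughout. CD68, a lysosomal gene, made up nearly all of the sum, and the pan-leukocyte gene PTPRC was at up to 2.48 reads. CD14, a monocyte marker, had 118 and 98.2 reads in SUM149 siEZH2 against 39.3 and 21.5 in siControl, and 27.4 and 33.9 in MDA-MB-231 siEZH2 against 6.56 and 8.38 in siControl. CSF1R, the receptor of macrophage colony-stimulating factor, had 111 and 126 reads in SUM149 siEZH2 against 39.2 and 30.3 in siControl, and 172 and 192 in MDA-MB-231 siEZH2 against 66.6 and 66.3 in siControl. CD34 had 42.2 and 31.6 reads in MDA-MB-231 siEZH2 against 5.63 and 5.91 in siControl, and at most 1.16 in SUM149. Of 8 endothelial markers, 2 reached 10 reads, KDR and PECAM1, and CDH5 was at up to 0.848 reads. In MDA-MB-231, KDR had 118 and 88.3 reads with siEZH2 against 124 and 105 with siControl, so its groups overlapped. PECAM1 had 28.9 and 30.4 reads in MDA-MB-231 siEZH2 against 4.73 and 11.025 in MDA-MB-231 siControl, without overlap. KDR and PECAM1 had at most 3.03 reads in any SUM149 library. The list sums were 5235 to 5624 reads in SUM149 siEZH2 against 2067 to 2491 in siControl, and 3510 to 3591 in MDA-MB-231 siEZH2 against 1504 to 1790 in siControl for the haematopoietic list. For the endothelial list they were 7.08 to 9.81 in SUM149 siEZH2 against 0 to 3.38 in siControl, and 129 to 159 in MDA-MB-231 siEZH2 against 128 to 138 in siControl. Of the members with enough reads to be tested, 3 of 5 fibroblast markers had a positive and 2 a negative line difference (1 and 1 on counts). Of 3 haematopoietic markers and 1 endothelial marker tested, none was called by limma or by edgeR. The part of these cell types in the results was not tested.

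Proteases and their inhibitors had line differences in both directions. Of 29 tested genes, 15 were positive and 9 negative (13 and 5 on recovered counts), against 11.2% and 10.4% of all tested genes (10.6% and 5.84% on counts). PLAU, the urokinase-type plasminogen activator, had 15596 and 15399 reads in SUM149 siEZH2 against 5395 and 6193 in SUM149 siControl, and 18691 and 19323 in MDA-MB-231 siEZH2 against 14579 and 15092 in MDA-MB-231 siControl (line difference 1.03 ± 0.09, adjusted p = 6.9e-06, limma). Of the 2 plasminogen activator genes, PLAU rose further in SUM149 and PLAT rose further in MDA-MB-231. TIMP2, an inhibitor of matrix metalloproteinases, had 1903 and 1717 reads in SUM149 siEZH2 against 622 and 663 in siControl, and 14872 and 12884 in MDA-MB-231 siEZH2 against 11112 and 11450 in siControl. TIMP3 rose to 2.20 times control in MDA-MB-231, and in SUM149, where it was at the floor, it had 14.7 and 26.3 reads with siEZH2 against 13.1 and 13.5 with siControl.

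Inflammatory genes moved in several patterns. For the counts that follow, 11.2% of all tested genes had a positive and 10.4% a negative line difference (10.6% and 5.84% on recovered counts). Of 29 tested NF-kB target and feedback genes, 9 had a positive and 6 a negative line difference (9 and 4 on recovered counts), and of 15 NF-kB subunits and kinases 3 were positive and 1 negative (4 and 0 on counts). ICAM1, a leukocyte adhesion receptor, had 2487 and 2283 reads in SUM149 siEZH2 against 1293 and 1337 in SUM149 siControl, and 561 and 565 in MDA-MB-231 siEZH2 against 749 and 781 in MDA-MB-231 siControl. It rose in SUM149 and fell in MDA-MB-231 (line difference 1.07 ± 0.08, adjusted p = 2.5e-06, limma). MAP3K14, the kinase NIK of the non-canonical arm, was at 99.1% of control in SUM149 and fell to 74.5% in MDA-MB-231 (line difference 0.38 ± 0.10, adjusted p = 0.012, limma). Its call was lost without MDA-MB-231 siControl replicate 2 (0.32), without MDA-MB-231 siEZH2 replicate 2 (0.30) and without SUM149 siEZH2 replicate 1 (0.33). Of 24 tested cytokines and chemokines, 7 were positive and 8 negative (7 and 3 on counts). IL1A and IL1B, which encode both forms of interleukin-1, rose to 2.22 and 2.55 times control in SUM149. In MDA-MB-231, IL1A fell to 17.4 and 27.6 reads with siEZH2, against 47.4 and 61.1 with siControl, and its line difference of 1.38 ± 0.10 was also called on counts (2.41). IL1B had 1.93 and 3.54 reads in MDA-MB-231 siEZH2 against 2.85 and 1.70 in siControl, and its line difference of 1.28 ± 0.12 was not called on counts (adjusted p = 0.51, edgeR).

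Most interferon response genes rose in each line, and the sign of their called line differences depended on the scale. Of 41 tested interferon response genes, 28 rose with siEZH2 in SUM149 and 34 in MDA-MB-231 (against 29.4% of all tested genes in each line), and 1 fell in each line. On deposited values 4 members had a positive and 14 a negative line difference, whereas on recovered counts 8 were positive and 1 negative. Shares of all tested genes were 11.2% and 10.4% on deposited values, and 10.6% and 5.84% on counts. SUM149 was at the floor for 15 of the 41 genes. Among the 21 members with both lines off the floor, 3 were positive and 3 negative on deposited values, and 6 and 1 on counts. GBP2, a guanylate-binding protein, had 44.1 and 50.6 reads in SUM149 siEZH2 against 21.3 and 12.4 in siControl, and 1167 and 1252 in MDA-MB-231 siEZH2 against 438 and 401 in siControl, which is 2.81 and 2.88 times control. Of 21 antigen presentation genes, 16 rose in SUM149 and 19 in MDA-MB-231, with 2 positive and 4 negative line differences (3 and 0 on counts). ERAP2, a peptidase that trims antigens, had 3247 and 3339.5 reads in SUM149 siEZH2 against 863 and 921 in SUM149 siControl, and 609.9 and 669.8 in MDA-MB-231 siEZH2 against 304 and 301 in MDA-MB-231 siControl (line difference 0.91 ± 0.09, adjusted p = 1.0e-05, limma).

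The called growth factor and receptor genes were mostly negative. Of 24 tested receptor tyrosine kinase and EGFR ligand genes, 7 had a negative and 2 a positive line difference (7 and 3 on recovered counts). The shares of all tested genes were 10.4% negative and 11.2% positive (5.84% and 10.6% on counts). AREG, NRG1 and EREG were the most negative, at -1.36, -1.21 and -1.03, with AREG at the floor in MDA-MB-231. TGFA, which encodes the EGFR ligand transforming growth factor α, had 879.8 and 929.8 reads in SUM149 siEZH2 against 572 and 698 in SUM149 siControl, and 2653 and 2649.7 in MDA-MB-231 siEZH2 against 3877 and 3875 in MDA-MB-231 siControl. TGFA rose in SUM149 and fell in MDA-MB-231 (line difference 0.90 ± 0.09, adjusted p = 2.4e-05, limma), the reverse of EREG.

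Metabolic and stress genes differed in both directions. Among all tested genes, 11.2% had a positive and 10.4% a negative line difference (10.6% and 5.84% on recovered counts). Of 28 tested genes of cholesterol synthesis and transport, 8 were negative and 1 positive (6 and 1 on recovered counts). SQLE, which encodes squalene epoxidase, had 2405 and 2419.7 reads in SUM149 siEZH2 against 3873 and 3647 in SUM149 siControl, and 673 and 632 in MDA-MB-231 siEZH2 against 702 and 654 in MDA-MB-231 siControl (line difference -0.55 ± 0.08, adjusted p = 0.00039, limma). ABCA1, which exports cholesterol, rose to 5.25 times control in SUM149 and 2.51 times in MDA-MB-231. Of 31 stress and amino acid response genes, 10 were negative and 6 positive (9 and 5 on counts): ASNS, asparagine synthetase, fell to 54.0% of control in SUM149 and 83.3% in MDA-MB-231, while SLC7A11, the cystine transporter, fell to 40.7% and 23.3%. Of 30 hypoxia and glycolysis genes, 7 were positive and 6 negative (7 and 4 on counts). SLC2A3, a glucose transporter, rose to 1.28 times control in SUM149 and fell to 65.1% of control in MDA-MB-231. Of 29 apoptosis genes, 6 were positive and 4 negative (7 and 3 on counts); PMAIP1, which encodes the BH3-only protein NOXA, fell to 45.6% of control in SUM149 and to 84.0% in MDA-MB-231, and BIRC2, the inhibitor of apoptosis cIAP1, was at 94.5% in SUM149 and fell to 57.9% in MDA-MB-231.

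**Figure D5:**
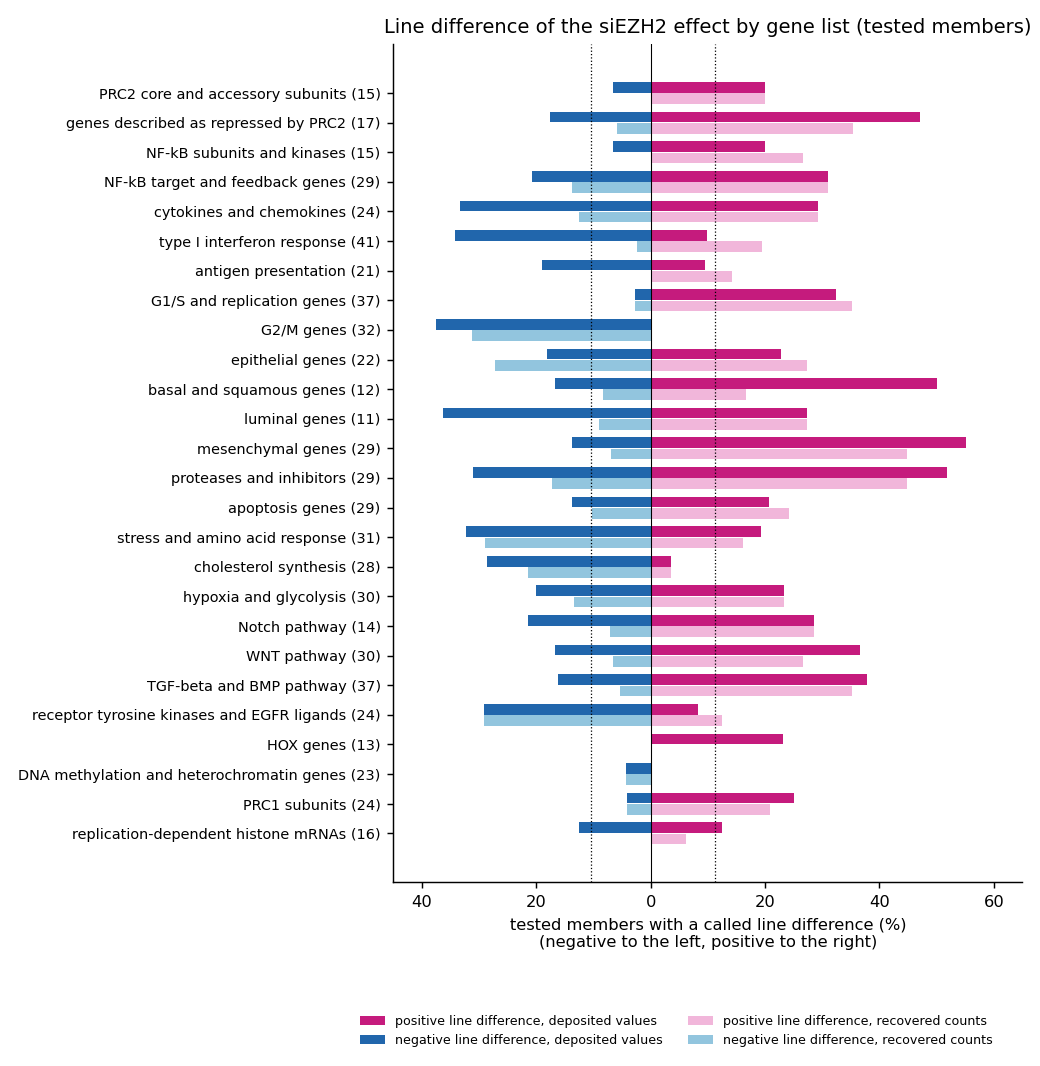
Share of tested members (number in brackets) with a called line difference, negative to the left and positive to the right (horizontal axis, %), for lists with at least 10 tested members, on deposited values (dark bars) and on recovered counts (light bars); dotted lines mark the 11.2% and 10.4% of all tested genes called on deposited values. G1/S genes lie almost wholly to the right and G2/M genes to the left on both scales, and the interferon list changes side between the scales.

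Developmental pathways and Polycomb genes were mixed. The counts of positive and negative members stand against 11.2% and 10.4% of all tested genes (10.6% and 5.84% on recovered counts). Of 17 tested genes described as repressed by PRC2, 8 were positive and 3 negative (6 and 1 on recovered counts), and 8 of the 17 had 1 line at the floor. SFRP1, a secreted WNT antagonist, rose to 2.19 times control in SUM149 with 9.47 to 12.5 reads in MDA-MB-231, and WNT5A rose to 2.57 times control with 1.91 to 4.81 reads there. Of 30 WNT pathway genes 11 were positive and 5 negative (8 and 2 on counts), and of 37 TGF-β and BMP pathway genes 14 and 6 (13 and 2 on counts). TGFBR3, the TGF-β co-receptor betaglycan, had 497 and 476 reads in SUM149 siEZH2 against 209 and 237 in SUM149 siControl, and 2931 and 2821 in MDA-MB-231 siEZH2 against 661 and 609.8 in MDA-MB-231 siControl (line difference -1.13 ± 0.09, adjusted p = 2.7e-06, limma). Of 14 Notch pathway genes 4 were positive and 3 negative (4 and 1 on counts). HES1, the Notch target repressor, had 661 and 593 reads in SUM149 siEZH2 against 302 and 290.3 in SUM149 siControl, and 180.4 and 161 in MDA-MB-231 siEZH2 against 284 and 250.1 in MDA-MB-231 siControl, so it rose in SUM149 and fell in MDA-MB-231.

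Of 15 PRC2 subunit genes, 3 were positive and 1 negative (3 and 0 on recovered counts), against 11.2% and 10.4% of all tested genes (10.6% and 5.84% on counts). The positive ones were EZH2 itself, the target of the siRNA, JARID2 and PHF19. PHF19 (0.32) lost its call without MDA-MB-231 siControl replicate 1 (0.29). The negative one, AEBP2 (-0.26), lost its call in 14 alternative settings, recovered counts among them. JARID2, an accessory subunit that recruits PRC2, had 3036 and 2812 reads in SUM149 siEZH2 against 2035 and 1967 in SUM149 siControl, and 2521 and 2669 in MDA-MB-231 siEZH2 against 2833 and 3008 in MDA-MB-231 siControl (line difference 0.65 ± 0.08, adjusted p = 0.00011, limma). The core subunits EED and SUZ12 had line differences of 0.09 and 0.04 that did not pass the test. Of 24 genes of Polycomb repressive complex 1, 6 were positive and 1 negative (5 and 1 on counts), the negative one being the chromobox gene CBX6 at -0.70. Of 23 DNA methylation and heterochromatin genes, only SETDB1, a histone H3 lysine 9 methyltransferase, was called, at -0.28, and this call was lost in 5 of the 8 fits that left out 1 library, at -0.23 to -0.30: without MDA-MB-231 siControl replicate 1, MDA-MB-231 siEZH2 replicate 2, SUM149 siControl replicate 2 or either SUM149 siEZH2 library. Of 13 tested HOX genes, 3 were positive on deposited values and 0 on counts by edgeR, and none had both lines off the floor.

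Lineage genes included many with 1 line at the floor. Across all tested genes 11.2% were positive and 10.4% negative (10.6% and 5.84% on recovered counts). Of 22 tested epithelial genes, 5 were positive and 4 negative, and 6 and 6 on recovered counts. EPCAM had 175 and 166 reads in SUM149 siEZH2 against 1594 and 1459.6 in SUM149 siControl, and 518 and 556 in MDA-MB-231 siEZH2 against 1410 and 1297 in MDA-MB-231 siControl. From nearly equal starting levels it fell to 11.2% of control in SUM149 and to 39.7% in MDA-MB-231 (line difference -1.13 ± 0.09, adjusted p = 3.9e-06, limma). CDH1, which encodes E-cadherin, had 141 and 162 reads in SUM149 siEZH2 against 116 and 102 in SUM149 siControl, and 2.87 and 5.67 in MDA-MB-231 siEZH2 against 24.5 and 23.8 in MDA-MB-231 siControl. Of 12 basal and squamous genes 6 were positive and 2 negative (2 and 1 on counts), with MDA-MB-231 at the floor for 7. Of 11 luminal genes 3 were positive and 4 negative (3 and 1 on counts): KRT8, a simple-epithelial keratin, rose to 1.69 times control in SUM149 and was at 1.00 times control in MDA-MB-231.

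Promoter composition was read from the RefSeq promoter table (GRCh38). Among protein-coding genes with both lines off the floor, the median number of CG dinucleotides from 250 bases before to 50 bases after the transcription start was 27 for genes that rose in SUM149 and fell in MDA-MB-231. It was 27 for the reverse class, 27.5 for genes called in SUM149 only, 27 for genes called in MDA-MB-231 only, and 27 for all tested genes.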

How the data were processed

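RNA was sequenced from 8 libraries: SUM149 and MDA-MB-231 cells with siEZH2 or siControl, 2 libraries per group. The authors deposited variance-stabilised log2-like values, and per the submitters' processing notes reads were handled with cutadapt, STAR 2.5.2b, Salmon and DESeq2 on hg19. How the transformation was set up is not stated in the labels. The lowest value was 7.12, and the curve fixed by it (constant 556.454) was inverted to obtain normalised reads. Of the recovered values under 6 reads, 76.5 to 80.2% lay within 0.03 of a whole number after scaling, so these values are called recovered reads. For the siRelA and siRelB libraries of MDA-MB-231 the authors deposited gene counts made with HISAT2 2.0.5 and featureCounts 1.5.0-p3, per the submitters' processing notes, with totals of 18.6 to 24.4 M. Positions come from GENCODE v44 (GRCh38), matched by symbol for 23961 genes, and no coordinate was converted. The authors' positions are on hg19 and were not used here.

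A model with 4 group means was fitted to the 8 libraries with limma 3.58.1 (lmFit, contrasts, eBayes with trend, 4 residual degrees of freedom). Benjamini-Hochberg adjustment ran over the 12356 kept genes, and an adjusted p under 0.05 was a call. Recovered counts were tested with edgeR 4.0.16 (glmQLFit, glmQLFTest, same contrasts), and so were the deposited siRel counts over 15930 genes. R 4.3.3, Python 3.11.15, pandas 2.3.3 and matplotlib 3.10.9 were used. The procedures were tested on simulated data with known changes. P-values measure the spread between these duplicates, which may be technical. Replicate numbers in the labels were not taken to pair libraries.

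Members, gene lists and named genes were chosen with earlier results of these data known. Genes named by rule were EZH2, the NF-kB subunits, the 8 most positive and 8 most negative with both lines off the floor, and the 6 in each opposite direction whose smaller effect was largest. They also included the 4 most positive and 4 most negative with each line at the floor, and 4 per line and direction called in 1 line with an effect under 0.2 in the other. Up to 4 called members of each list completed the rule. The ranked genes were taken only from those annotated as protein-coding, a limit not set for the list members. Of the tested genes, 723 had no match by symbol, 127 of them with a called line difference, and could not enter the rankings. Some genes that the rule selects are not reported here. Other genes in the text (such as CDKN1B, EED and SUZ12) were chosen after their values were seen. The 30 lists hold 832 entries, and the mitochondrial mRNAs had no gene in the table. Alternatives were other filters, variance models, normalisations, the count scale, replicate blocks, a threshold of 0.01 and leaving out each library.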

Additional observations from a re-analysis of the deposited data

Results flagged for a closer look

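The siEZH2 effect differed between the lines by the test of the difference itself for 1381 genes with a positive and 1281 with a negative line difference (limma, adjusted p under 0.05). Among the 12 genes named for opposite effects, the difference between the lines was 1.56 for FMN1, 1.47 for DUSP6, 1.16 for LCP1, 1.10 for EPAS1, 1.04 for NUAK1 and 0.98 for SOCS3. It was -1.47 for CPA4, -1.36 for SLCO4A1, -1.21 for ADAMTS1, -1.15 for JUN, -1.03 for EREG and -0.94 for LCLAT1. These 12 genes were chosen for opposite effects, so the signs within each line are a description. The groups hold 2 libraries each, so no single library was examined as far from its group.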

How the results depend on the processing

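On recovered counts (edgeR) 722 genes were negative and 483 were called in MDA-MB-231 only, and 9 named genes changed sign: SAMD9L to 0.30, IFIT2 to 0.48, CCL20 to 1.82, GBP2 to 0.061, IFIT1 to 1.14, KRT5 to -2.05, COL1A2 to 2.07, NRARP to 0.037 and HOXB9 to -1.77. Of the 137 named genes, 102 kept sign and call on counts and 26 kept only the sign. With only genes above the floor in both controls, 474 were called in SUM149 only and 479 in MDA-MB-231 only, since fewer genes were tested. At an adjusted p under 0.01 (limma) there were 776 positive and 623 negative calls, 57 that rose in SUM149 and fell in MDA-MB-231, 29 with the reverse, 470 called in SUM149 only, 440 in MDA-MB-231 only and 394 in the same direction. The causes of the other changes were not tested. The 2662 calls became 2254 with no filter (2063 of them among the genes of the filtered fit), 2227 with the stricter filter, 2640 with median centring and 2692 with quantile normalisation, and no named gene changed sign in these 4.

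Leaving out 1 library gave 849 to 1311 positive and 762 to 1221 negative calls. It gave 76 to 120 genes that rose in SUM149 and fell in MDA-MB-231, 41 to 80 with the reverse, 487 to 886 called in SUM149 only, 430 to 743 in MDA-MB-231 only and 478 to 767 in the same direction. Within SUM149 the range was 3024 to 3657 up and 2799 to 3631 down, and within MDA-MB-231 2930 to 3736 up and 2457 to 3389 down. The starting level was called higher in SUM149 for 4760 to 5135 genes and lower for 4736 to 5112. Without MDA-MB-231 siControl replicate 1 the calls were 1611, without MDA-MB-231 siControl replicate 2 they were 1683, and without SUM149 siEZH2 replicate 2 they were 1772. Without SUM149 siEZH2 replicate 1 the genes moving in the same direction were 593. With 1 library left in a group, that library is assumed to vary like the other groups. Residuals of same-numbered libraries correlated at -0.117 in SUM149 and 0.088 in MDA-MB-231. A replicate block within each line gave 2571 calls (2454 shared with the fit without it), a shared replicate block 2462 (2429 shared), and SUM149 numbers crossed, added after seeing the data, 2677 (2515 shared). The blocks kept the call of 135 of 137 named genes. Genes under about 10 reads move by 0.158 or less per doubling, which limits any call at that level. In the siRel libraries, the siRelB effect stayed between 0.75 and 0.80 for DUSP6 and between -1.21 and -0.69 for SLCO4A1 over 9 alternatives added after seeing the data, and both kept their call. That of LCP1 also kept its call, between -2.25 and -0.91, the ends being without siRelB replicate 2 and without siRelB replicate 1.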

Other observations

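Of 2 linker histone genes, HIST1H1B was near 0 reads in MDA-MB-231 and HIST1H1C was read in both lines. HIST1H1B had 22829.7 and 20555 reads in SUM149 siEZH2 against 26441 and 26030.3 in SUM149 siControl, and 3.86 and 6.37 in MDA-MB-231 siEZH2 against 0 and 3.39 in MDA-MB-231 siControl. HIST1H1C had 8288 and 8320.4 reads in SUM149 siEZH2 against 7530.3 and 8007 in SUM149 siControl, and 17814 and 19233 in MDA-MB-231 siEZH2 against 21431 and 20392 in MDA-MB-231 siControl. Of 16 tested replication-dependent histone genes, 14 fell with siEZH2 in SUM149 and 8 in MDA-MB-231, with 2 positive and 2 negative line differences (1 and 0 on recovered counts). Among all tested genes 28.6% fell in SUM149 and 27.1% in MDA-MB-231. Line differences were positive for 11.2% and negative for 10.4% of them (10.6% and 5.84% on counts). Histone genes are near-identical in sequence, so their read assignment is uncertain.

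ASNS, asparagine synthetase, had 78.4 CPM in the MDA-MB-231 siControl libraries of the siEZH2 experiment and 0.726 CPM in those of the siRel experiment, 108-fold apart between separately normalised tables.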
